A study of Mus musculus with 9 samples.

Results

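The miR-23/27/24 clusters are a pair of short chromosomal stretches that each encode a miR-23, a miR-27 and a miR-24 hairpin, and they were followed here in EVs from the lavaged lung after O3 exposure. In the table of miRNA levels, 54 of 1308 entries belonged to their 6 hairpins, mir-23a, mir-27a and mir-24-2 on chromosome 8 and mir-23b, mir-27b and mir-24-1 on chromosome 13. All entries whose name carried any of these hairpins were taken, with both arms, both genomic copies of miR-24-3p and every isomiR. An isomiR, read from its name's suffix, is a form whose 5′ end starts earlier or later than that of the mature miRNA. That reading follows miRquant's naming, since the deposited names do not define the suffix, and the shifted sequences and seeds below rest on it. Of the 54 entries, 12 were mature miRNAs and 42 were isomiRs, of which 32 started later and 10 earlier. The hairpins had 11 (mir-23a), 10 (mir-27a), 8 (mir-24-2), 10 (mir-23b), 7 (mir-27b) and 8 (mir-24-1) entries.

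Female C57BL/6J mice of 8 to 10 weeks of age breathed filtered air (FA), 1 ppm O3 or 2 ppm O3 in a whole body chamber for 3 h, and bronchoalveolar lavage fluid (BALF) was collected 21 h later. EV RNA was purified from BALF on a membrane affinity column and its small RNA was sequenced in 9 pools, 3 for each exposure. Each FA pool held BALF of 4 mice and each O3 pool BALF of 3 mice, so the number of mice in a pool and O3 exposure cannot be told apart. Levels are RPMMM, reads per 1000000 reads mapped to miRNAs, so each level is a share of the miRNA reads of its pool.

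Each cluster is transcribed as 1 primary RNA that is cut into its hairpins, and Dicer then releases a duplex of a 5p and a 3p arm from each hairpin. One arm is usually kept by an Argonaute protein, where its seed pairs with target mRNAs, and the other arm is mostly lost. The clusters arose by duplication and are best known from endothelial cells, muscle, and blood and immune cells, and their miR-24-3p is made identically by both.

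The hairpins are close neighbours in the genome. On the plus strand of mm9, mir-23a lay at chr8:86732417-86732491, mir-27a at chr8:86732571-86732657 and mir-24-2 at chr8:86732714-86732820, a span of 404 bases. The annotation placed no other gene over any of these hairpins. On chromosome 13, also on the plus strand, mir-23b lay at chr13:63401792-63401865, mir-27b at chr13:63402020-63402092 and mir-24-1 at chr13:63402516-63402583, a span of 792 bases. These 3 hairpins overlapped the protein-coding gene 2010111I01Rik on the same strand and met none of its exons, so they were intronic. The bases between hairpins were not searched on either chromosome.

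The mature sequences are shown because the comparisons below turn on which of them can be told apart by reads. RefSeq (GRCm38.p6) held 11 of the 12 mature entries, all but miR-23b-3p, and capitals mark the seed, bases 2 to 8 from the 5′ end.

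miR-24-3p: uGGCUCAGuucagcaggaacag
miR-23a-3p: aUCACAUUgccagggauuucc
miR-27a-3p: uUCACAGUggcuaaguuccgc
miR-27b-3p: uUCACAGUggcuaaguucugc
miR-24-2-5p: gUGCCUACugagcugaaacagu
miR-24-1-5p: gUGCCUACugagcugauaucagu
miR-23a-5p: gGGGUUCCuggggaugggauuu
miR-23b-5p: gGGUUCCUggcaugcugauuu
miR-27a-5p: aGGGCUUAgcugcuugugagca
miR-27b-5p: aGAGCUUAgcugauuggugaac

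miR-24-3p is the same 22 bases in mir-24-1 and mir-24-2, so no read could be given to 1 cluster. All 5 entries of 1 copy held the same values as those of the other copy in every pool, so the copies are 1 measurement. Its reads were divided evenly between them as far as low values show: of 22 values per copy above 0 and under 100 reads, 8 lay within 0.03 reads of a whole read and 9 as close to a point midway between whole reads (40.9%, against 8.21% of such values of entries named without a copy number). All of these values were of isomiRs, since the mature entry had an estimated 1575 to 2810 reads per copy in a pool. If the mature entry was divided alike, ratios given per copy leave out the other copy's equal share. They are 2 times as large with both copies summed, in every pool alike. Sums over both copies rest on the same reading. Among the 24 entries of the clusters that were tested, this left 21 distinct series of values. miR-27a-3p and miR-27b-3p differ at 1 base, C19U counted from the 5′ end of miR-27a-3p, and share their seed. The hairpins mir-23a and mir-23b share a stretch of 20 bases that holds the seed of miR-23a-3p, and differ at the next base. Their mature 3p arms were not compared, because RefSeq held no miR-23b-3p. The 5p arms of the miR-24 hairpins share their seed and first 16 bases, and those arms, unlike miR-24-3p, are specific to a cluster. The seeds of miR-23a-3p and miR-27a-3p are equal at 6 of 7 bases.

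The deposited table carried the marks of shallow 2 ppm pools. Reads were estimated with the lowest value above 0 of each pool taken as about 10 reads. All read numbers given here rest on that assumption. Estimated miRNA reads were 535412 to 773108 in FA pools, 554981 to 860763 in 1 ppm pools and 281476 to 300844 in 2 ppm pools. The lowest value above 0 was 34.3 to 37.3 RPMMM in 2 ppm pools and 11.8 to 18.9 RPMMM in the others. An entry at 0 in a 2 ppm pool may thus lie below a higher limit. The comparisons with FA share the 3 FA pools.

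Together the 54 entries held 5.59% ± 0.277 (SD, n = 3 pools) of miRNA reads in FA, 6.32% ± 0.0598 after 1 ppm O3 and 5.84% ± 0.267 after 2 ppm O3. That sum was higher in each 1 ppm pool than in any other pool, and it hid unlike parts. Products made by the chromosome 8 hairpins alone (mir-23a, mir-27a and miR-24-2-5p) took 2.90% ± 0.109 in FA, 3.59% ± 0.0720 at 1 ppm and 2.97% ± 0.416 at 2 ppm. Products made by the chromosome 13 hairpins alone (mir-23b, mir-27b and miR-24-1-5p) took 2.07% ± 0.131, 2.05% ± 0.127 and 1.28% ± 0.105. The shared miR-24-3p, with its isomiRs and both copies, took 0.618% ± 0.0383, 0.685% ± 0.0321 and 1.59% ± 0.243. The chromosome 13 share was thus lower, and the miR-24-3p share higher, in each 2 ppm pool than in any other pool. These are shares of all miRNA reads, of which miR-2137 and 4 other hairpins, named below, took 0.588% in FA and 45.2% at 2 ppm.

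**Figure D1:**
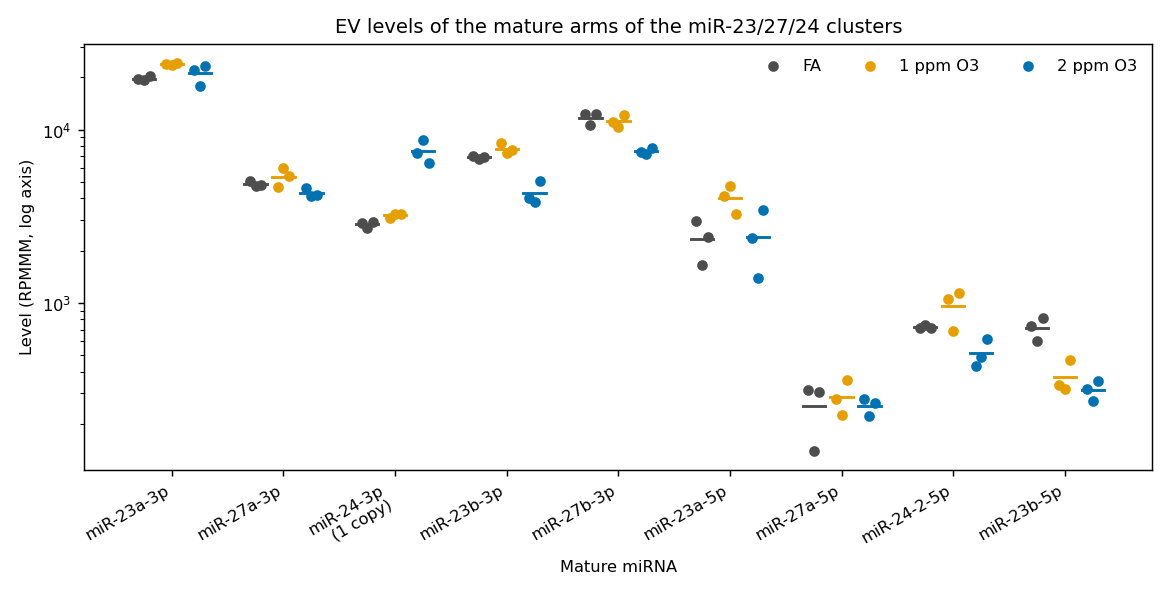
Levels in RPMMM (log axis) of the mature arms found in all 9 pools, 1 point per pool and a bar at the mean of each exposure. miR-24-3p (1 of its 2 identical copies) stands apart upward in the 2 ppm pools, at 6401 to 8702 RPMMM against 2689 to 3264 RPMMM in the others, while miR-23b-3p and miR-27b-3p stand apart downward.

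miR-24-3p showed the largest change of the tested mature arms of the clusters. Per copy, it stood at 2900.1, 2689 and 2941 RPMMM in FA pools, at 3102, 3253 and 3264 RPMMM in 1 ppm pools and at 7368, 8702 and 6401 RPMMM in 2 ppm pools. Each 1 ppm pool was above each FA pool, and the 2 ppm pools lay far above both. Summed over both copies, the means were 5687 ± 270.2, 6412 ± 181 and 14980.4 ± 2311 RPMMM (SD, n = 3 pools).

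miR-24-3p rose after 2 ppm O3 by a log2 fold change of 1.39 (SE 0.121, Benjamini-Hochberg adjusted p = 8.96e-06 from limma) compared with FA, and by 1.21 (SE 0.121, adjusted p = 6.18e-05 from limma) compared with 1 ppm O3. The change from FA to 1 ppm, 0.17 (95% interval -0.10 to 0.45, adjusted p = 0.459 from limma), did not pass the test. The change at 2 ppm passed the test and a 2-fold change in all 21 settings of processing, with log2 fold changes from 1.27 to 2.25. EVs that carry more miR-24-3p and more EVs that carry it cannot be told apart in such pools.

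The isomiRs of miR-24-3p were a small share of its reads, 7.85% ± 1.88 in FA, 6.32% ± 2.38 at 1 ppm and 5.64% ± 0.462 at 2 ppm. The isomiR that starts 1 base later, gGCUCAGUucagcaggaacag, has a seed that no mature miRNA of the RefSeq table shares, and stood per copy at 231, 92.5 and 137 RPMMM in FA, 83.2, 251 and 99.9 at 1 ppm and 266, 333 and 246 at 2 ppm. Its 1 ppm and 2 ppm pools overlapped, and its change at 2 ppm against FA (log2 fold change 0.96, adjusted p = 0.124 from limma) did not pass the test. The isomiR that starts 2 bases later had 73.0, 63.4 and 66.3 RPMMM in FA, 72.4, 29.7 and 61.6 at 1 ppm and 134, 192 and 122 at 2 ppm, so every 2 ppm pool was above all others. It differed between 2 and 1 ppm (log2 fold change 1.503, adjusted p = 0.0397 from limma) but that call was lost without FA pool 1 or 2, 1 ppm pool 2 or 3, or any 2 ppm pool, with adjusted p between 0.0503 and 0.118. Against FA its change at 2 ppm was 1.11 (adjusted p = 0.0928 from limma, and 0.0436 without 1 ppm pool 2).

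As a share of miRNA reads, the 3p arms of the chromosome 8 cluster varied less than miR-24-3p. miR-23a-3p, the reference to which the study set its RT-qPCR, was its most abundant product, at 19557, 19304 and 20263 RPMMM in FA pools, 23934, 23522 and 24117 in 1 ppm pools, and 22095, 17911 and 23336 in 2 ppm pools. The 1 ppm pools were above all others, and the 2 ppm pools spread across the FA range on both sides.

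miR-27a-3p, which shares its target seed with miR-27b-3p, had 5066, 4746 and 4814 RPMMM in FA, 4650.4, 6026 and 5366 at 1 ppm, and 4573, 4134 and 4192 at 2 ppm. The 2 ppm pools were the lowest 3 of the 9. Against FA its log2 fold change at 2 ppm was -0.18 (95% interval -0.43 to 0.07, adjusted p = 0.186 from limma), and from 1 to 2 ppm it was -0.31 (adjusted p = 0.0495 from limma). The lower level from 1 to 2 ppm passed in 4 of 21 settings and was lost without any single pool except 1 ppm pool 1 (adjusted p from 0.0568 to 0.133). Under the median of ratios and the total without miR-2137 and 4 hairpins, the change from FA to 2 ppm turned to 0.52 (adjusted p = 0.0136 from limma) and 0.68 (adjusted p = 0.00213), past the threshold in the other direction, and that from 1 to 2 ppm to 0.31 (adjusted p = 0.109) and 0.44 (adjusted p = 0.0268).

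The 3p arms of the chromosome 13 cluster had their lowest shares of miRNA reads at 2 ppm. miR-23b-3p stood at 7037, 6717 and 6987 RPMMM in FA, 8358, 7346 and 7594 at 1 ppm, and 4034, 3800.1 and 5047 at 2 ppm. miR-27b-3p stood at 12221, 10569 and 12243 RPMMM in FA, 11056, 10392 and 12109 at 1 ppm, and 7453, 7241 and 7829 at 2 ppm. In both arms all 3 of the 2 ppm pools lay below all 6 others, with no overlap, while the 1 ppm pools were above the FA pools for miR-23b-3p and overlapped them for miR-27b-3p.

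As a share of all miRNA reads, miR-23b-3p fell by 0.70 (log2, SE 0.118, adjusted p = 0.000851 from limma) and miR-27b-3p fell by 0.63 (SE 0.0971, adjusted p = 0.000461 from limma) from FA to 2 ppm, but their changes were 0.00049 and 0.06 when pools were scaled by the median of ratios and 0.16 and 0.23 under the total without miR-2137 and 4 hairpins. From 1 to 2 ppm the shares fell by 0.86 (adjusted p = 0.000375 from limma) and 0.57 (adjusted p = 0.00115 from limma), and the same scalings gave -0.25 and 0.04, and -0.12 and 0.17. Neither passed a 2-fold change in any comparison with FA.

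These scalings matter because a few entries filled the 2 ppm pools. miR-2137 alone took a mean of 0.266% of miRNA reads in FA, 4.09% at 1 ppm and 19.5% at 2 ppm, and together with the 4 hairpins mir-5109, mir-5115, mir-5102 and mir-5105 it took 0.588%, 8.07% and 45.2%, which lowers the share of every other entry. Over all entries tested, the median change from FA to 2 ppm was, on the log2 scale, -0.83 as deposited, -0.51 with miR-2137 left out of the total, -0.09 under the median of ratios and 0.05 with all 5 hairpins left out. Beside a median of -0.83, the tested members had a median of -0.02. The latter counts miR-24-3p and its isomiRs starting 1 and 2 bases later, all higher at 2 ppm, in both copies, which pulls it upward.

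**Figure D2:**
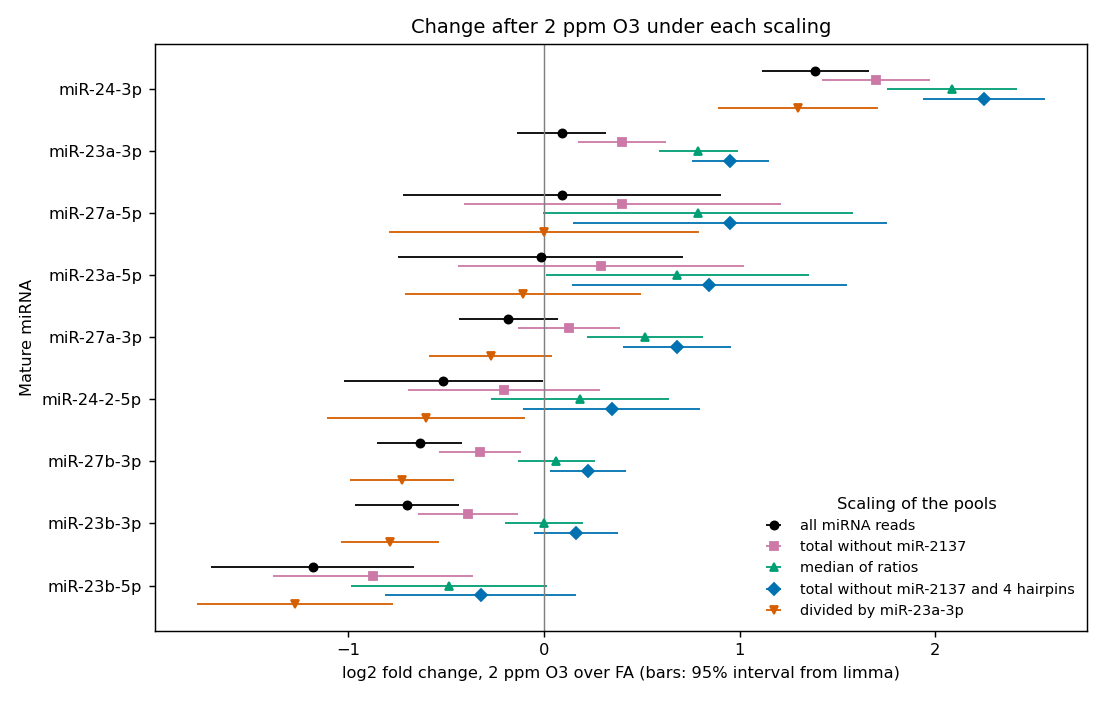
log2 fold change from FA to 2 ppm O3 (x axis) of each mature arm under 5 scalings of the pools, with 95% intervals from limma. miR-24-3p lies between 1.30 and 2.25 under all 5, while miR-23b-3p and miR-27b-3p lie below 0 under 3 of them and near or above 0 under the median of ratios and under the total without miR-2137 and 4 hairpins.

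miR-23a-3p itself moved with the scaling. Its log2 fold change from FA to 2 ppm was 0.09 as deposited (adjusted p = 0.449 from limma), 0.40 with miR-2137 left out of the total (adjusted p = 0.00971), 0.79 under the median of ratios (adjusted p = 6.66e-05 from limma) and 0.95 with the 5 hairpins left out (adjusted p = 1.97e-05 from limma). At 1 ppm it was 0.28 (adjusted p = 0.112 from limma, and 0.0293 without 2 ppm pool 2) as deposited, 0.36 (adjusted p = 0.0219) under the median of ratios and 0.39 (adjusted p = 0.0153) with the 5 hairpins left out. From 1 to 2 ppm it was -0.19 (adjusted p = 0.164 from limma) as deposited, and turned to 0.43 (adjusted p = 0.00630) and 0.56 (adjusted p = 0.00141) under those scalings.

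Setting each pool to its miR-23a-3p level, as a qPCR would, gave log2 fold changes from FA to 2 ppm of 1.30 for miR-24-3p (adjusted p = 0.000206 from limma), -0.79 for miR-23b-3p (adjusted p = 0.000213 from limma) and -0.73 for miR-27b-3p (adjusted p = 0.000497 from limma). miR-27a-3p stood at -0.27 (adjusted p = 0.116 from limma) on this scale. With this divisor 56.8% of all 463 entries tested passed an adjusted p of 0.05, and their median change was -0.92, so a lower level on it was common.

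Across the clusters, 3 of the 24 entries tested passed both an adjusted p of 0.05 and a 2-fold change from FA to 2 ppm, against 43.6% of all 461 entries. They were both copies of miR-24-3p, which were higher, as were 14.3% of all entries, and miR-23b-5p, which was lower, as were 29.3%. From FA to 1 ppm no entry did by limma, against 13.2% of all entries, and limma without the trend or on those exposures alone also called 0. From 1 to 2 ppm 4 did, against 33.6% of all entries, namely miR-24-3p and its isomiR starting 2 bases later, in both copies, all of them higher, as were 11.3% of all entries. The 24 entries were above 0 in every pool, while the 461 include entries listed at 0 in some pools. Shares among entries above 0 in every pool alone were not counted.

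With an adjusted p below 0.05 at any fold change, 7 of 24 passed from FA to 2 ppm, against 53.4% of all entries. Of the 7, 3 were higher and 4 lower, against 15.4% and 38.0% of all entries. The lower ones were miR-23b-3p, miR-27b-3p, miR-23b-5p and the isomiR of miR-23b-3p starting 1 base later, all from chromosome 13. The higher ones were miR-24-3p, counted in both copies, and the isomiR of miR-23a-3p starting 1 base later. At 1 ppm 1 of 24 passed, against 17.1%, and it was lower, as were 6.07% of all entries, and from 1 to 2 ppm 8 of 24, against 44.5%. The pools of FA and 2 ppm did not overlap for 16 of 24 entries, against 66.4% of all entries, and 8 of these were higher and 8 lower at 2 ppm, against 18.2% and 48.2% of all entries. The 8 higher included miR-24-3p and its isomiRs starting 1 and 2 bases later. Each of these was counted in both copies, which are 1 measurement, so the even split rests partly on repeated rows.

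The 5p arms, which are the less abundant arms of these hairpins, gave 1 of the calls from FA to 2 ppm. miR-23b-5p stood at 733, 601 and 812 RPMMM in FA, 336, 317 and 468 at 1 ppm and 319, 272 and 352 at 2 ppm. Every O3 pool was below every FA pool, and the O3 concentrations overlapped.

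miR-23b-5p fell by 1.18 on the log2 scale from FA to 2 ppm (SE 0.231, adjusted p = 0.00187 from limma), a call lost under the median of ratios (-0.48, adjusted p = 0.112) and with the 5 hairpins left out of the total (-0.32, adjusted p = 0.272), and short of a 2-fold change with miR-2137 left out (-0.87). From FA to 1 ppm it fell by 0.95 (SE 0.231, adjusted p = 0.0208 from limma), short of a 2-fold change. The 1 ppm call was lost without FA pool 1 or 3 or 1 ppm pool 1 or 2, where the adjusted p lay between 0.0551 and 0.0827, and with no filter on low levels (adjusted p = 0.102). Of the tested entries of the clusters it alone passed an adjusted p of 0.05 at 1 ppm as deposited.

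miR-24-2-5p, the arm opposite miR-24-3p on chromosome 8, stood at 714, 738 and 717 RPMMM in FA, 1052, 685 and 1135 at 1 ppm and 431, 487 and 618 at 2 ppm. Its 2 ppm pools were below all others, the opposite of miR-24-3p in the same pools. The log2 fold change was -0.51 from FA to 2 ppm (adjusted p = 0.0806 from limma, 0.0318 without 1 ppm pool 2 and 0.0461 without 2 ppm pool 3) as deposited, but 0.18 under the median of ratios and 0.35 with the 5 hairpins left out. From 1 to 2 ppm it was -0.88 (adjusted p = 0.0123 from limma), and -0.27 and -0.14 under those scalings, where the call was lost.

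miR-24-1-5p, the arm opposite miR-24-3p on chromosome 13, was listed in 3 pools, at 20.7 and 44.8 RPMMM in FA pools 2 and 3 and 23.2 RPMMM in 1 ppm pool 3. It was listed at 0 in every 2 ppm pool. miR-24-2-5p was therefore the only arm opposite miR-24-3p that could be followed across all pools.

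miR-27b-5p was listed at 85.6, 32.3 and 78.4 RPMMM in FA, at 0, 21.6 and 63.9 RPMMM at 1 ppm, and at 0 in every 2 ppm pool, where the lowest level above 0 of any entry was 34.3 to 37.3 RPMMM. It had at most an estimated 66 reads in a pool.

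The 5p arms of the chromosome 8 cluster spread widely within an exposure. miR-23a-5p stood at 2965, 1649 and 2394 RPMMM in FA, 4135, 4713 and 3257 at 1 ppm and 2370.2, 1392 and 3424 at 2 ppm. Its 1 ppm pools were above all FA pools, yet the change of 0.81 (adjusted p = 0.144 from limma) did not pass, and that at 2 ppm was -0.02 (95% interval -0.75 to 0.71). miR-27a-5p lay between 140 and 357 RPMMM over all pools and changed by 0.09 at 2 ppm (95% interval -0.72 to 0.90, adjusted p = 0.835 from limma), a value that was -0.29 without FA pool 2.

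Ratios between members within a pool do not depend on how pools are scaled, so 10 of them were compared over the exposures. A trend with O3 concentration was tested by counting the pairs of pools from different exposures that stood in the order of concentration, over all possible arrangements of the pools, and the 10 p-values were adjusted together. Exposures were also compared 3 pools against 3, for which the smallest p an exact permutation test can give is 0.1.

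The miR-23 paralogs stood furthest apart at 2 ppm, while their FA and 1 ppm ratios overlapped. miR-23a-3p was 2.78, 2.87 and 2.90 times the level of miR-23b-3p in FA pools, 2.86, 3.20 and 3.18 times in 1 ppm pools and 5.48, 4.71 and 4.62 times in 2 ppm pools. All 2 ppm pools exceeded all others, and 25 of the 27 pairs of pools stood in the order of concentration (exact trend test, two-sided, p = 0.00952, adjusted p = 0.0476). The adjusted p was 0.143 without FA pool 1, 1 ppm pool 3 or any 2 ppm pool, 0.0952 without 1 ppm pool 2 and 0.0536 without FA pool 2 or 3.

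miR-27a-3p was 0.414, 0.449 and 0.393 times miR-27b-3p in FA, 0.421, 0.580 and 0.443 times at 1 ppm and 0.614, 0.571 and 0.535 times at 2 ppm. The 2 ppm pools were above every FA pool and overlapped those at 1 ppm. In this case 23 of 27 pairs stood in the order of concentration, and the trend did not pass after adjustment (exact trend test, two-sided, p = 0.0417, adjusted p = 0.139).

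The ratios of neighbours on 1 chromosome changed less from FA to 2 ppm than those of the paralogs. miR-23b-3p to miR-27b-3p had geometric means of 0.593 in FA, 0.695 at 1 ppm and 0.568 at 2 ppm, with 12 of 27 pairs in order (exact trend test, two-sided, adjusted p = 0.923). miR-23a-3p to miR-27a-3p had 4.04, 4.49 and 4.88, with 22 of 27 pairs in order (exact trend test, two-sided, adjusted p = 0.185). The log2 difference from FA to 2 ppm was -0.06 for the former and 0.27, with no overlap, for the latter. It was 0.79 for miR-23a-3p to miR-23b-3p and 0.45 for miR-27a-3p to miR-27b-3p.

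**Figure D3:**
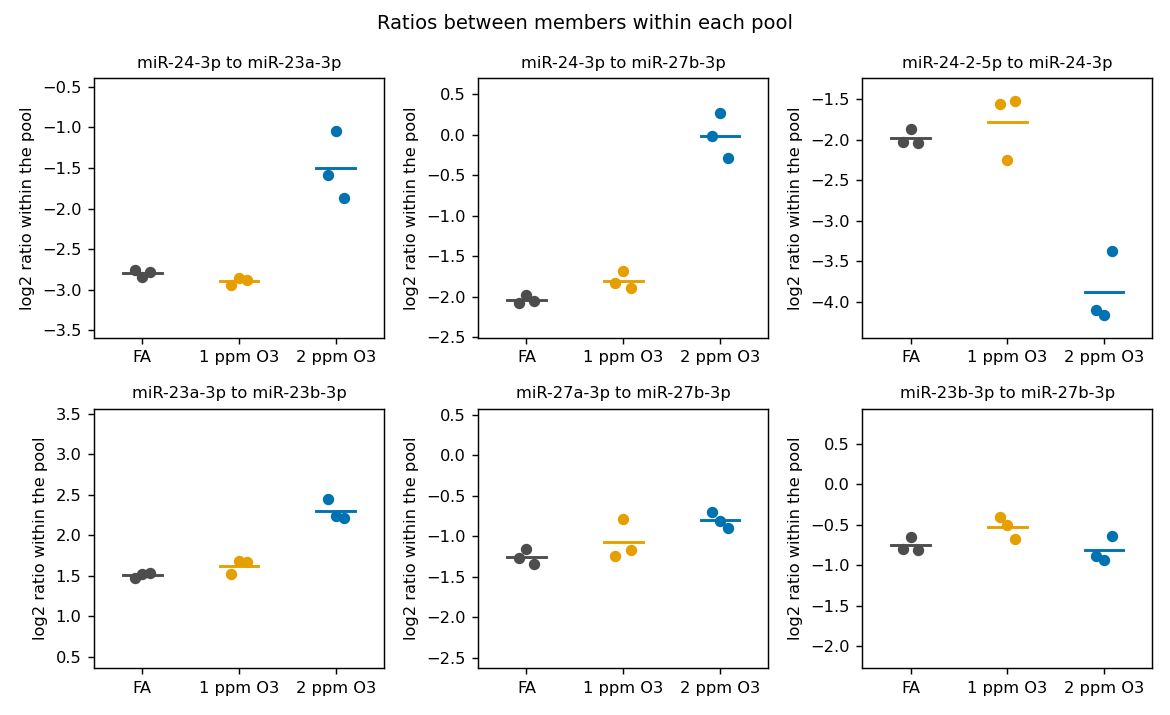
log2 ratios between 2 members within each pool, 1 point per pool with a bar at the mean, over the same height of y axis in every panel. miR-24-3p leaves its cluster neighbours at 2 ppm, where its ratio to miR-27b-3p reaches 0.990 from 0.244 in FA (geometric means, per copy), while miR-23b-3p to miR-27b-3p stays between 0.525 and 0.756 in all pools.

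miR-24-3p departed from both clusters at 2 ppm. Per copy it was 0.237, 0.254 and 0.2402 times miR-27b-3p in FA, 0.281, 0.313 and 0.270 times at 1 ppm and 0.989, 1.20 and 0.818 times at 2 ppm. All 27 pairs of pools stood in the order of concentration (exact trend test, two-sided, p = 0.00119, the smallest these pools can give, adjusted p = 0.0119).

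Against miR-23a-3p it was 0.148, 0.139 and 0.145 in FA, 0.130, 0.138 and 0.135 at 1 ppm and 0.333, 0.486 and 0.274 at 2 ppm. The 1 ppm pools were all below FA and the 2 ppm pools all above, so that 18 of 27 pairs stood in order (exact trend test, two-sided, adjusted p = 0.554). From FA to 2 ppm the ratio was 2.46 times higher, with no overlap (p = 0.1 in an exact two-sided permutation test, the smallest possible).

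miR-24-2-5p was 0.246, 0.275 and 0.244 times miR-24-3p per copy in FA, 0.339, 0.210 and 0.348 times at 1 ppm and 0.0585, 0.0560 and 0.0965 times at 2 ppm. At 2 ppm the ratio was 0.268 times that in FA without overlap (p = 0.1 in an exact two-sided permutation test, the smallest possible), and the trend over all pools had an adjusted p of 0.245 by the exact trend test. The other arm ratios showed no trend with concentration past the threshold. miR-23b-5p to miR-23b-3p had geometric means of 0.103, 0.0475 and 0.0733 (adjusted p = 0.554 in the exact trend test), lowest at 1 ppm with no overlap between any exposures. miR-23a-5p to miR-23a-3p had 0.115, 0.167 and 0.107 (exact trend test, adjusted p = 0.923) and miR-27a-5p to miR-27a-3p 0.0487, 0.0529 and 0.0590 (exact trend test, adjusted p = 1).

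Most isomiR entries of the clusters were rare. Of the 42, 14 were above 0 in all pools and the same number were tested. Of all 54 entries, 26 were seen in some FA or 1 ppm pool and listed at 0 in every 2 ppm pool, and 10 were above 0 in 1 pool. Over all 1308 entries, 802 to 839 were at 0 in each 2 ppm pool, against 511 to 561 in FA pools and 456 to 591 in 1 ppm pools. Entries lost from every 2 ppm pool were not counted over all entries. The lowest level listed in the 2 ppm pools was higher than in the others, as given above. Its part in the 26 was not tested.

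Among the tested isomiRs, that of miR-23a-3p starting 1 base later had 387, 306 and 375 RPMMM in FA, 407, 555 and 522 at 1 ppm and 623, 434 and 612 at 2 ppm. Every O3 pool was above every FA pool, and it made up 1.73% ± 0.197 of the reads of its arm in FA and 2.51% ± 0.182 at 2 ppm. Its change at 2 ppm of 0.63 (adjusted p = 0.0421 from limma) lost its call without any FA pool, without 1 ppm pool 3 and without 2 ppm pool 1 or 3, with adjusted p from 0.0504 to 0.122.

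The isomiR of miR-23b-3p starting 1 base later had 484, 511 and 444 RPMMM in FA, 463, 384 and 361 at 1 ppm and 331, 250.04 and 262 at 2 ppm. It fell by 0.78 from FA to 2 ppm as deposited (adjusted p = 0.0119 from limma), with -0.08 under the median of ratios and 0.08 with the 5 hairpins left out, so it followed its mature arm. The isomiR starting 1 base earlier took 0.437% ± 0.264 of the miR-23b-3p reads in FA, 0.765% ± 0.369 at 1 ppm and 1.49% ± 0.0423 at 2 ppm. It had at most an estimated 64 reads in a pool. For miR-27b-3p the isomiR starting 1 base later, whose seed is that of miR-128-3p, held 2.56% ± 0.294, 2.61% ± 0.407 and 2.44% ± 0.532 of the arm's reads.

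Since miR-23a-3p served as the reference, the spread of each member over the 9 pools was set beside that of all entries. The coefficient of variation (CV, the SD over the mean) of miR-27a-3p was 12.2%, rank 3 of 461 from the lowest, next to 10.8% for miR-23a-3p. It was 20.6% for miR-27b-3p (rank 17), 23.9% for miR-27a-5p (rank 27), 25.7% for miR-23b-3p (rank 32) and 31.8% for miR-24-2-5p (rank 74). miR-23a-5p had 37.5%, miR-23b-5p 42.8% and miR-24-3p 51.2% (rank 234), the last above the median of all entries of 50.6%. Of 13 miRNAs often used as references in qPCR, listed in 18 entries, miR-25-3p had the lowest CV, 13.7%, and miR-423-3p the highest, 45.3%.

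The order of the members turned with the scaling. Under the median of ratios miR-27b-3p had a CV of 5.60%, rank 1 of 458, and miR-23b-3p 10.0%, rank 4, while miR-23a-3p had 25.3% and miR-24-3p 77.0%. With the 5 hairpins left out of the total, miR-27b-3p had 8.64% (rank 3 of 498), miR-23b-3p 10.4% and miR-23a-3p 30.3%. Which cluster looked steadier thus depended on the divisor, and miR-24-3p had the highest CV of the 3p arms under each of the 4 scalings run.

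**Figure D4:**
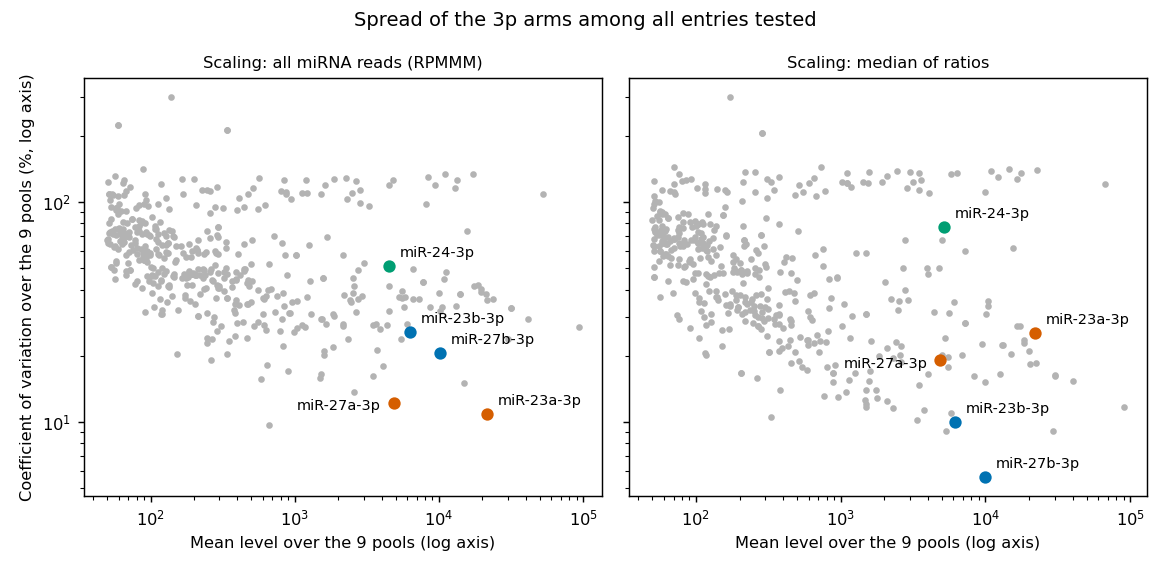
CV over the 9 pools against mean level, both on log axes, for all entries tested (grey) and for the 3p arms of the chromosome 8 cluster (orange), of the chromosome 13 cluster (blue) and of both (miR-24-3p, green). With RPMMM miR-23a-3p and miR-27a-3p lie lowest of the 5, at 10.8% and 12.2%, and under the median of ratios miR-27b-3p and miR-23b-3p do, at 5.60% and 10.0%.

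Likeness between miRNAs was described by the SD of the log2 ratio of their levels over the 9 pools, which no scaling changes, among 323 other entries that were tested and above 0 in all pools, isomiRs included. To miR-23a-3p, miR-152-3p was closest (SD 0.142), followed by the cluster neighbour miR-27a-3p (0.182, rank 2), an isomiR of miR-1943-5p starting 1 base later (0.235, rank 3, named after its value was seen), miR-25-3p (0.238, rank 4) and miR-16-1-5p (0.242, rank 5), the median over all entries being 0.687. miR-27b-3p stood at rank 25 (0.331), miR-23b-3p at rank 32 (0.379) and miR-24-3p at rank 175 (0.708). To miR-27b-3p the closest were miR-182-5p (0.130), miR-30a-5p (0.151) and miR-148a-3p (0.153), with miR-23b-3p at rank 9 (0.174) and miR-24-3p at rank 260 (0.969). The closest to miR-24-3p, a target chosen after its values were seen, were miR-22-3p (0.289), miR-92b-3p (0.293) and miR-375-3p (0.400), and none of its cluster neighbours was nearer than miR-23a-3p at rank 28. The pools shared their depth and exposure in all these ratios, and no test was made.

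Levels of miRNAs that mark cells whose EVs the lavage could hold are given beside these results, with no test. Summed over the 8 listed epithelial hairpins, all above 0 in every pool, levels were 76486 to 85983 RPMMM in FA, 57361 to 62318 at 1 ppm and 38618 to 42303 at 2 ppm, beside a median change of all entries tested of -0.83 (log2) from FA to 2 ppm. The endothelial mir-126 stood at 112 to 314, 445 to 938 and 764 to 912 RPMMM, higher in every O3 pool than in FA, with the O3 concentrations overlapping. The 3 leukocyte hairpins, 2 of them above 0 in every pool, summed to 1431 to 2129, 1848 to 2362 and 1285 to 1463 RPMMM, and the 3 red cell hairpins, 2 above 0 in every pool, to 884 to 1822, 150 to 343 and 158 to 948 RPMMM. For leukocytes each pair of exposures but 1 and 2 ppm overlapped, and for red cells FA overlapped 2 ppm but not 1 ppm. The log2 ratio of mir-451 to miR-23a-3p, an index of red cell lysis in plasma, was -5.72 to -4.36 in FA, -8.35 to -7.61 at 1 ppm and -8.38 to -5.60 at 2 ppm. The part of these sources in the lower chromosome 13 arms and the higher miR-24-3p was not tested.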

How the data were processed

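Small RNA of EVs from BALF was sequenced in 9 pools, 3 for each exposure. The authors mapped reads to mm9, ran miRquant 2.0 on them for mature miRNAs and isomiRs and deposited the result as RPMMM, an RPM over miRNA reads alone, with a column for each pool. Entries with a mean above 50 RPMMM were kept (461), log2(RPMMM + 1) was taken, and all 9 pools entered a single limma 3.58.1 fit (R 4.3.3) with the 3 exposures as groups and variance trended on level. Benjamini-Hochberg adjustment ran over all 461 entries, and the thresholds were an adjusted p of 0.05 and a fold change of 2. The 30 entries of the clusters under that mean were described only. The study's own test is not given in the sources used here. The fit was tested on simulated data. Between 66.6% and 82.0% of low values lay within 0.03 reads of a whole-read step, and reads mapping to several places were split, so counts were not recovered and no count test was run. Adding 1 shrinks the fold changes of low entries that are above 0 in every pool. For an entry listed at 0 in a pool, the fold change depends on the added 1 and may be too large. The p-values measure the spread between pools. The median of ratios scales each pool by the median ratio of its entries to their geometric means. Positions are exact matches of RefSeq hairpin sequences to mm9. Alternatives were set for the pseudocount, filter, scaling, isomiRs and copies, model and each pool left out. Any entry of the 6 hairpins could be named, with fixed lists of reference and marker miRNAs, the 3 mature entries outside the clusters closest to miR-23a-3p and to miR-27b-3p, and miR-2137. The members and lists were chosen with earlier results of these data known. Python 3.11.15 with numpy 2.4.6, pandas 2.3.3, scipy 1.17.1 and matplotlib 3.10.9 was used for the rest.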

Additional observations from a re-analysis of the deposited data

How the results depend on the processing

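The number of entries of the clusters past both thresholds was 3 from FA to 2 ppm O3, and 7 with no filter, 7 under the median of ratios, 8 under the total without miR-2137 and 4 hairpins, 5 without the limma trend, 5 on those exposures alone, and 3 to 5 with each pool left out (5 without 1 ppm pool 2). From 1 to 2 ppm it was 4, and 2 with a mean above 200 RPMMM, 1 with mature miRNAs counted once, 2 on those exposures alone, and 2 to 5 with each pool left out (2 without FA pool 1 or 2, 1 ppm pool 3, or 2 ppm pool 1 or 2). From FA to 1 ppm it was 0, and 1 when divided by miR-23a-3p and 0 to 1 with each pool left out (1 without FA pool 2 or 1 ppm pool 3). Fewer entries were tested with the higher mean and with mature miRNAs once, and the cause of the other shifts was not tested.

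Directions that turned did so mostly with the scaling. From FA to 2 ppm the log2 fold change turned to 0.68 (miR-23a-5p), 0.52 (miR-27a-3p), 0.18 (miR-24-2-5p), 0.00049 (miR-23b-3p) and 0.064 (miR-27b-3p) under the median of ratios, to 0.84, 0.68, 0.35, 0.16 and 0.23 under the total without miR-2137 and 4 hairpins, where the isomiR of miR-23b-3p starting 1 base later turned to 0.080, and to 0.29 (miR-23a-5p) and 0.13 (miR-27a-3p) without miR-2137. From 1 to 2 ppm the first 2 of these scalings gave 0.43 and 0.56 (miR-23a-3p), 0.31 and 0.44 (miR-27a-3p), 0.46 and 0.59 (miR-27a-5p), 0.38 and 0.51 (miR-23b-5p) and 0.041 and 0.17 (miR-27b-3p), the total without miR-2137 gave 0.067 (miR-23a-3p), 0.10 (miR-27a-5p) and 0.016 (miR-23b-5p), and division by miR-23a-3p gave 0.033 (miR-27a-5p). From FA to 1 ppm miR-27b-3p turned to 0.022 and 0.052 under the first 2, and division by miR-23a-3p gave -0.15 (miR-27a-3p), -0.031 (miR-27a-5p), -0.10 (miR-24-3p) and -0.11 (miR-23b-3p). With each pool left out, miR-23a-5p at 2 ppm against FA ranged from -0.32 to 0.33, and miR-27a-5p from -0.29 to 0.30 there, from -0.14 to 0.45 from FA to 1 ppm and from -0.31 to 0.018 from 1 to 2 ppm.

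The trend ratios kept direction and side of the threshold with 1 added to both values and with isomiRs summed. For miR-23a-3p to miR-23b-3p the adjusted p ranged from 0.0179 to 0.143 over the pools left out (exact trend test). With each pool left out, the log2 difference from FA to 2 ppm ranged from 0.71 to 0.83 for miR-23a-3p to miR-23b-3p, from -0.34 to 0.12 for miR-23a-5p to miR-23a-3p and from -0.089 to 0.46 for miR-27a-5p to miR-27a-3p. The CV became 25.3% and 30.3% (miR-23a-3p), 77.0% and 81.6% (miR-24-3p), 10.0% and 10.4% (miR-23b-3p) and 5.60% and 8.64% (miR-27b-3p) under the median of ratios and the total without miR-2137 and 4 hairpins, 23.2% (miR-27a-3p) under the latter and 12.3% (miR-27b-3p) without miR-2137.

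Over the single arms and isomiRs named, 270 alternatives kept direction and side of the threshold, 21 lost the call, 17 gained it and 33 turned, and with each pool left out 252 kept both, 25 lost the call, 5 gained it and 6 turned.

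No paired analysis was possible because the labels number no replicates across exposures. Depth limits entries near an estimated 10 reads, most of all in the 2 ppm pools.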
